A study of Mus musculus with 57 samples.

Results

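NRF2 antioxidant targets were followed here through 10 genes that the transcription factor NRF2 is known to switch on: Nqo1, Cbr1, Cbr3, Gclc, Gclm, Slc7a11, Gsr, Txnrd1, Srxn1 and Osgin1. They were chosen by name, and all 10 were found among the 54307 genes of the table. Bulk RNA-seq covered livers of 57 male wild-type C57BL/6JJcl mice, 6 weeks old plus 1 week of acclimatisation, which were fasted for 12 h, dosed once with a hepatotoxicant or a vehicle and killed 24 h later. By gavage, 4 mice received alpha-naphthyl isothiocyanate (ANIT), 6 acetaminophen (APAP), 7 methylene dianiline (MDA) and 5 thioacetamide (TAA), and 13 controls (Ctrl) received 0.5% methylcellulose. Intraperitoneally, 7 mice received CCl4 and 4 galactosamine (GAL), beside 2 controls (CIP) given 0.9% saline. Intravenously, 7 mice received the plant lectin concanavalin A (ConA), beside 2 controls (CIV) given saline. Corn oil is named in the labels as a further vehicle with no control group, so compound and vehicle cannot be told apart wherever it was used. Each compound was set against the vehicle of its route and against all 17 vehicle livers.

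NRF2, encoded by Nfe2l2, is held in the cytoplasm by KEAP1, which presents it to a CUL3 ubiquitin ligase for degradation. Electrophiles and oxidants modify cysteines of KEAP1, and NRF2 then accumulates, pairs with small MAF proteins and binds antioxidant response elements in its target genes. In liver these targets make and recycle glutathione, reduce thioredoxin and sulfinylated peroxiredoxins, and reduce quinones and carbonyls, which several of the toxicants studied here yield when hepatocytes metabolise them.

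Column totals of estimated counts ran from 13826343 to 35075809 with a median of 21532116. Levels are given as CPM, the count relative to the TMM-scaled library size over all 57 livers, and a gene is called where the adjusted p of edgeR's quasi-likelihood test is under 0.05. TMM and plain library totals differ by composition: the median log2 fold change over all genes lay 0.76 higher for GAL, 0.43 higher for CCl4 and 0.59 lower for ConA (a shift of -0.59) without TMM. The summed level of 6 hepatocyte markers was 19694 to 29809 CPM in CCl4 livers and 26756 to 35068 in GAL livers, against 57077 and 63236 in the 2 CIP livers, and all 6 markers were lower in both. In ConA livers the sum of 5 Kupffer cell markers was 22.9 to 49.8 CPM against 277 and 279.7 in CIV livers (5 of 5 lower), and in TAA livers 6 neutrophil markers summed to 159 to 831 CPM against 2.11 to 62.4 in Ctrl (6 of 6 higher). The ConA livers held 126 to 287 CPM of the neutrophil sum against 7.95 and 8.97 in CIV (3 of 4 tested higher). The sum of 5 stellate cell markers was 6.23 to 13.8 CPM in MDA livers (5 of 5 lower) and 8.21 to 14.5 in ANIT livers (4 of 5 lower), against 15.5 to 41.6 in Ctrl. The sum of 7 monocyte and macrophage markers was 203 to 403 CPM in APAP livers against 73.4 to 238 in Ctrl (5 of 7 higher), and that of the stellate markers 30.8 to 118 (3 of 5 higher). GAL livers held a neutrophil sum of 25.3 to 41.0 CPM against 5.40 and 5.52 in CIP (4 of 5 tested higher) and a monocyte and macrophage sum of 247 to 382 against 125 and 184 (3 of 7 higher). The neutrophil sum in CCl4 livers was 10.6 to 73.2 CPM (3 of 6 higher), and 3 of 7 monocyte and macrophage markers were higher there. The sum of 5 sinusoidal endothelial markers in CCl4 livers was 59.1 to 80.5 CPM against 99.0 and 116 in CIP (3 of 5 lower). After APAP, 3 of 4 neutrophil markers tested were higher, and after TAA 3 of 3 B cell markers tested. In ConA livers 6 cholangiocyte markers summed to 92.0 to 202 CPM against 26.8 and 62.2 in CIV (2 of 5 tested higher). Their part in the results below was not tested, and in a bulk sample fewer cells of a type and less RNA per cell cannot be told apart. One library stood apart for several members: APAP liver 1.

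Most of the 9 members other than Slc7a11 were higher after 6 of the 7 compounds. Slc7a11 passed the filter on low counts by route only after TAA, CCl4 and GAL, and there only through the treated livers, so it is left out of these counts. After MDA, 9 of 9 members were higher, where 17.4% of all genes tested were higher, 16.4% were lower and 33.8% were called in all. After TAA the count was 8 of 9, against 26.4% of all genes higher, 24.0% lower and 50.5% called. After ANIT it was 8 of 9, against 14.0% higher, 14.2% lower and 28.2% called. After CCl4 it was 7 of 9, against 18.0% higher, 15.6% lower and 33.5% called, and 4 of 9 without CIP liver 8 (Gclc, Gsr and Nqo1 were then not called). After GAL it was 6 of 9, against 12.8% higher, 15.7% lower and 28.5% called. After APAP it was 6 of 9, against 17.3% higher, 14.6% lower and 31.8% called, and 4 of 9 without APAP liver 1. After ConA, 1 of 9 members was higher and 1 was lower, against 16.8% of all genes higher, 17.3% lower and 34.2% called. Cbr3 passed the filter there only with the treated livers, and without it 1 of 8 members was higher and 1 lower. The 2 ConA calls became 1 without ConA liver 8 and 4 without ConA liver 12. Without 1 CIP or CIV liver only 1 control remains, and calls lost there do not show that levels were alike. No member was lower against its route vehicle in the other 6 compounds. The median log2 fold change of the 9 members was 2.18 for GAL, 1.73 for MDA, 1.63 for TAA, 1.35 for ANIT, 0.83 for CCl4, 0.87 for APAP and 0.63 for ConA, while that of all genes lay between -0.01 and 0.10.

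**Figure D1:**
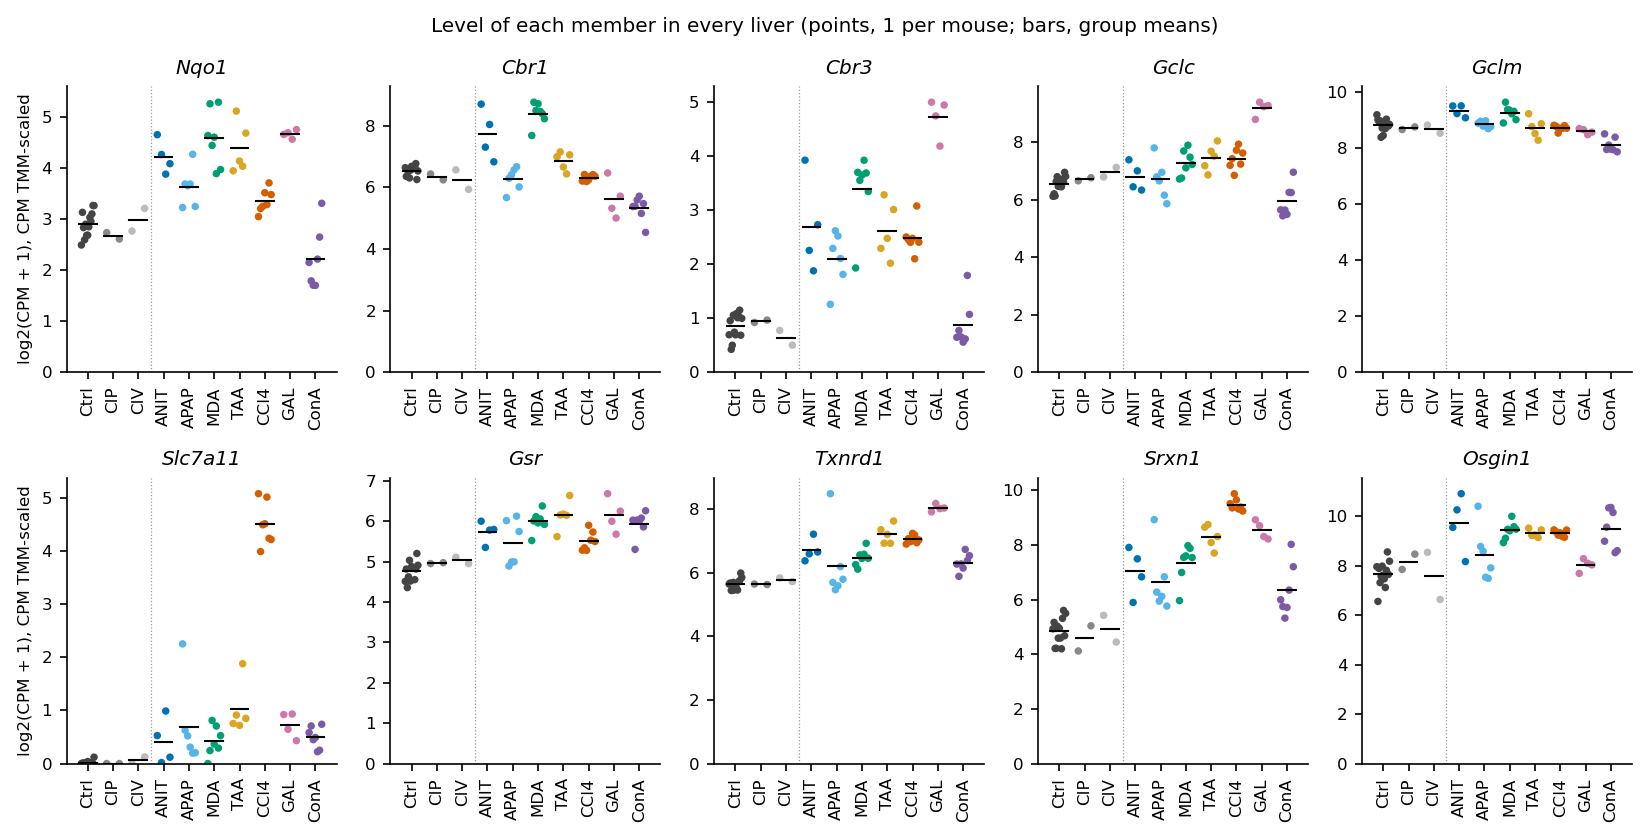
Level of each of the 10 genes in every liver, as log2(CPM + 1), with 1 point per mouse and a bar at the group mean; the 3 vehicle groups stand left of the dotted line. Slc7a11 is near 0 in the vehicles and 14.9 to 32.7 CPM in CCl4 livers, and APAP liver 1 lies above the other 5 APAP livers for Txnrd1, Srxn1 and Slc7a11.

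**Figure D2:**
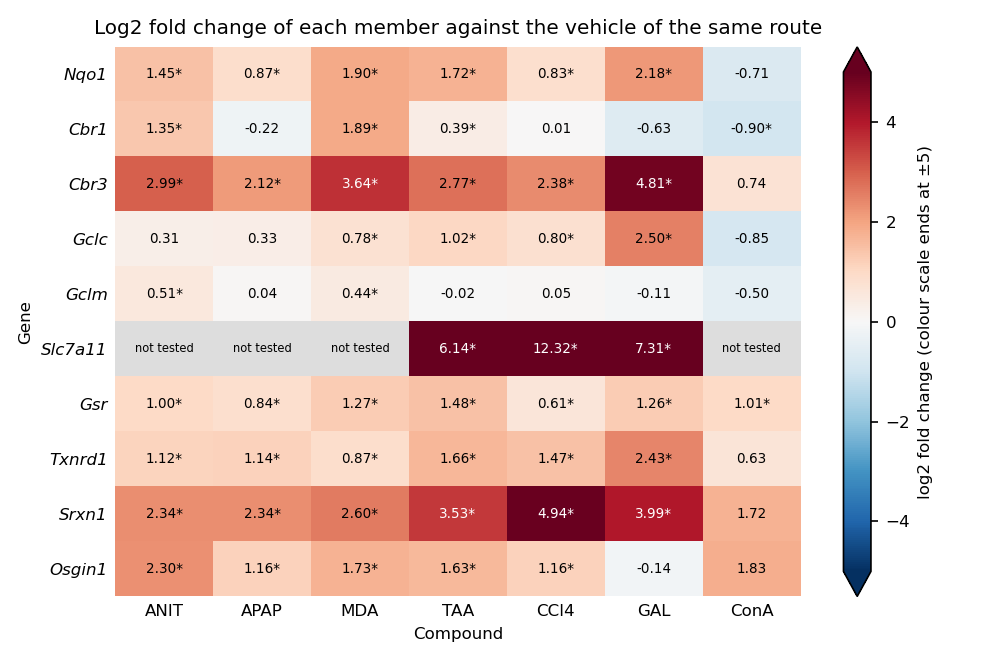
Log2 fold change of each gene (vertical) after each compound (horizontal) against the vehicle of the same route, with an asterisk where the adjusted p was under 0.05 and grey where the gene was not tested. The values for Gsr and Srxn1 are positive throughout, Gclm stays between -0.50 and 0.51, and the values for Slc7a11 rest on vehicles near 0 and depend on the prior count.

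The reductases of quinones and carbonyls differed in which compounds raised them. Nqo1 (ENSMUSG00000003849.9) encodes the NADPH quinone reductase that is the usual marker of NRF2 activity. In the 13 Ctrl livers Nqo1 ran from 4.62 to 8.62 CPM with a median of 6.46, and in the 2 CIP livers it was 5.65 and 5.10 CPM. It was 24.3, 24.9, 22.7 and 25.99 CPM in the GAL livers, all above both CIP livers (log2 fold change 2.18 ± 0.19 SE, adjusted p = 0.00217). The fitted rise was 4.53-fold, and the 4 GAL livers lay close together. In MDA livers Nqo1 ran from 13.8 to 38.2 CPM with a median of 23.4 (1.90 ± 0.18, adjusted p = 1.11e-07), and in TAA livers it was 14.4, 33.7, 16.6, 15.4 and 24.7 CPM (1.72 ± 0.17). ANIT livers held 24.2, 18.2, 13.7 and 16.0 CPM of Nqo1 (1.45 ± 0.16), again without overlap with Ctrl. APAP livers, at 8.36 to 18.3 CPM with a median of 11.7, overlapped Ctrl and were called (0.87 ± 0.16, adjusted p = 3.48e-04). In CCl4 livers Nqo1 was 7.27 to 12.1 CPM, median 8.74 (0.83 ± 0.20, adjusted p = 0.0117). The value was 0.74 without CIP liver 8, a fit with 1 control liver.

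Cbr1 (ENSMUSG00000051483.10) encodes the abundant carbonyl reductase of liver, and Cbr3 (ENSMUSG00000022947.9) its close paralog. Reads that the 2 share could have been split between them by the authors' counting. Cbr1 was flat over the Ctrl livers, 75.5 to 109 CPM with a median of 93.8. MDA livers held 205 to 436 CPM of Cbr1, median 354, all above every Ctrl liver (1.89 ± 0.11, adjusted p = 1.79e-10). ANIT livers held 417, 158, 264 and 113 CPM (1.35 ± 0.20, adjusted p = 8.85e-05), and the spread among the 4 was wide but stayed above Ctrl. In TAA livers Cbr1 was 127, 142, 100.5, 85.8 and 132 CPM, which overlapped Ctrl and was called (0.39 ± 0.11, adjusted p = 0.00696). The APAP (-0.22 ± 0.12) and CCl4 (0.01 ± 0.12) values of Cbr1 did not pass the test. GAL livers held 87.7, 39.1, 31.2 and 51.7 CPM of Cbr1 against 85.8 and 74.9 CPM in CIP (-0.63 ± 0.39, adjusted p = 0.264). That GAL value was -0.98 ± 0.23 (adjusted p = 0.0209) without GAL liver 2 and 0.16 with library totals alone.

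Cbr3 was scarce in vehicles and rose after every compound but ConA. It was at 0.338 to 1.21 CPM in Ctrl livers, median 0.932, and at 0.889 and 0.948 CPM in CIP livers. In GAL livers Cbr3 reached 30.9, 25.8, 17.2 and 29.8 CPM, 28.0-fold over CIP in the fit (4.81 ± 0.35, adjusted p = 0.00208). MDA livers ran from 2.80 to 14.1 CPM, median 11.5 (3.64 ± 0.25, adjusted p = 1.88e-09). The changes were 2.99 ± 0.33 for ANIT, 2.77 ± 0.26 for TAA, 2.38 ± 0.32 for CCl4 and 2.12 ± 0.26 for APAP, and in each of these 6 compounds all treated livers lay above all control livers. The highest vehicle liver held 1.21 CPM of Cbr3, and the lowest liver of these 6 groups, APAP liver 1, held 1.38 CPM.

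Within glutathione synthesis and its cystine supply, Gclc was highest after GAL, Slc7a11 after CCl4, and Gclm changed least. GCLC is the catalytic and GCLM the modifier subunit of glutamate-cysteine ligase, the rate-limiting enzyme of glutathione synthesis. Gclc (ENSMUSG00000032350.10) was 68.5 to 123 CPM in Ctrl livers, median 94.6, and 100.1 and 108 CPM in CIP livers. The GAL livers held 444, 674, 605 and 620.1 CPM of Gclc, 5.65-fold over CIP (2.50 ± 0.24, adjusted p = 0.00217), and the lowest GAL liver was above every other liver of the series. TAA livers held 145, 116, 205, 182 and 264 CPM (1.02 ± 0.16, adjusted p = 2.26e-05) and MDA livers 105 to 238 CPM, median 149 (0.78 ± 0.15, adjusted p = 3.72e-04), and both groups overlapped Ctrl. The 7 CCl4 livers, 114 to 244 CPM with a median of 172, lay above both CIP livers, and the call was close to the threshold (0.80 ± 0.27, adjusted p = 0.0475). It was lost without CCl4 liver 5 (adjusted p = 0.0674), 8 (0.0713), 11 (0.0513) or 12 (0.0718). Without CIP liver 7 or 8, which leaves 1 control liver, the value was 0.77 or 0.84. ANIT (0.31 ± 0.17) and APAP (0.33 ± 0.21) did not pass the test for Gclc. With the number range as a covariate the ANIT value was 0.57 ± 0.20 (adjusted p = 0.056) by route and 0.57 ± 0.19 (adjusted p = 0.0452) against all vehicles, where it was 0.24 ± 0.17 without the covariate.

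Gclm (ENSMUSG00000028124.16) had the smallest changes of the 10 genes, between -0.50 and 0.51 against the route vehicles. Ctrl livers held 330.2 to 577 CPM of Gclm, median 453. ANIT livers held 717, 594, 719 and 535 CPM (0.51 ± 0.13, adjusted p = 0.00628) and MDA livers 471 to 787 CPM, median 627 (0.44 ± 0.11, adjusted p = 0.00418), and both groups overlapped Ctrl. Within the mice numbered 1 to 4, where Ctrl livers stood at 489 to 577 CPM, neither value passed (ANIT 0.29 ± 0.14, adjusted p = 0.204, and MDA 0.29 ± 0.18, adjusted p = 0.357). In the GAL livers, where Gclc was highest, Gclm was 409.7, 399, 352 and 375 CPM against 399.97 and 427 CPM in CIP (-0.11 ± 0.14, adjusted p = 0.593). Library totals alone gave 0.66 for Gclm in GAL (adjusted p = 0.0353) and 0.49 in CCl4 (adjusted p = 0.0138), where TMM gave 0.05.

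The ratio of Gclc to Gclm within a liver does not depend on scaling. It was 0.119 to 0.380 over the 17 vehicle livers, 0.229 ± 0.0668 (SD, n = 17). In the 4 GAL livers it was 1.08 to 1.72, 1.54 ± 0.303 (SD, n = 4), so that the catalytic subunit's transcript exceeded that of the modifier in every GAL liver. The ratio was 0.244 to 0.594 in TAA livers and 0.312 to 0.592 in CCl4 livers, with means of 0.449 and 0.422, and 0.146 to 0.233 in ANIT livers. Since the deposited values appear corrected for transcript length, a ratio between genes is read here as roughly per length. The ratio of Cbr3 to Cbr1 was also highest in the GAL livers: 0.00361 to 0.0137 in vehicles, 0.353 to 0.660 in GAL, 0.0402 to 0.0878 in CCl4 and 0.0137 to 0.0400 in MDA. Both ratios are described without a test.

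**Figure D3:**
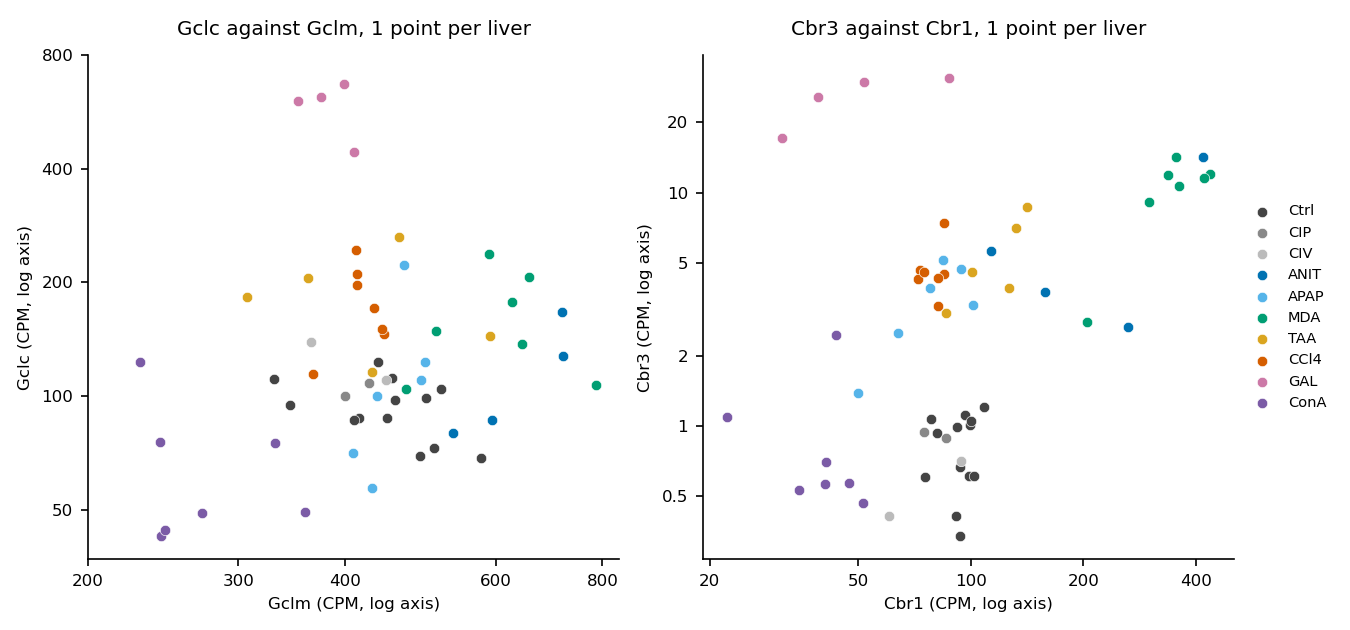
Gclc against Gclm (left) and Cbr3 against Cbr1 (right) in each of the 57 livers, both axes in CPM on log scales, coloured by group. The 4 GAL livers stand above all others in both panels at Gclm levels of 352 to 409.7 CPM, while MDA and ANIT livers extend to the right, towards higher Gclm and Cbr1.

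Promoter sequence from RefSeq (GRCm38.p6) was available for 8 of the 10 members, from 250 bases before to 50 after the start site. It was searched for the core antioxidant response element TGACNNNGC on both strands, which 12.4% of 32851 promoters of that length hold. Of the 10 promoters of these 8 members, 3 held a match (Gclm, 1 Txnrd1 promoter and, after its start site, Srxn1). The Gclm window is shown because Gclm moved least although its promoter holds a match: it is chr3:122245403-122245451, plus strand, with the match in capitals, on the strand opposite to the gene, 134 to 126 bases before the start.
Gclm: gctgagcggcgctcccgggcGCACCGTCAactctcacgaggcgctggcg
No match says only that these letters are not in this window.

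Slc7a11 (ENSMUSG00000027737.11) encodes xCT, the light chain of the cystine/glutamate antiporter that imports cystine for glutathione synthesis. It was nearly silent in the vehicles: 10 of 17 livers were at 0, and the highest held 2.81 estimated counts. The 7 CCl4 livers held 14.9 to 32.7 CPM of Slc7a11, median 21.5, a mean of 22.5 ± 6.92 (SD, n = 7) against 2 CIP livers at 0. Taking 3 estimated counts per CIP liver as the floor, Slc7a11 was at least 137-fold higher after CCl4 and at least 4.14-fold higher after GAL. The GAL livers held 0.894, 0.562, 0.908 and 0.348 CPM. TAA livers held 0.685, 0.881, 0.645, 2.68 and 0.802 CPM, at least 7.34-fold over the floor of the Ctrl livers, and at least 4.86-fold without TAA liver 7. Since Slc7a11 passed the filter only through the treated livers, these values are given as a description with no test. In APAP livers, not tested, Slc7a11 was 0.145 to 3.76 CPM, and all 6 lay above the Ctrl range, which ended at 0.0862 CPM. The 7 ConA livers, also not tested, held 0.167 to 0.669 CPM, all above both CIV livers (0 and 0.0904 CPM). Of these ConA livers, 2 held 3 estimated counts or fewer.

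Slc7a11 is also a known target of ATF4, the transcription factor of the amino acid response. The core of the amino acid response element, TGATGNAA, searched on both strands, is in 3.97% of the 32851 promoters, with 2 or more matches in 0.07%. Of the 8 members with a promoter, Slc7a11 alone held a match, and it held 2, in opposite orientations between 66 and 40 bases before the start. The window is shown for this pair (capitals), at chr3:50443633-50443699 on the minus strand.
Slc7a11: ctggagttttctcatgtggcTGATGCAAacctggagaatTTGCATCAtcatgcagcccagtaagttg
Its antioxidant response element core was not matched within these 300 bases. A match of letters is a description of the sequence and was not tied to any binding in these data.

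The thiol reductases were called higher after 6 compounds or more. Gsr (ENSMUSG00000031584.17), glutathione reductase, returns oxidised glutathione to its reduced form, and it was called higher after all 7 compounds. Ctrl livers held 19.5 to 35.9 CPM of Gsr, median 27.3, CIP livers 30.0 and 30.5 CPM and CIV livers 33.6 and 30.0 CPM. TAA livers held 48.3, 70.4, 71.5, 69.9 and 98.8 CPM (1.48 ± 0.13, adjusted p = 2.94e-08), MDA livers 45.1 to 82.4 CPM, median 63.5 (1.27 ± 0.11), and ANIT livers 63.2, 39.9, 54.1 and 54.7 CPM (1.00 ± 0.13). These 3 groups lay wholly above Ctrl. GAL livers held 102, 63.1, 50.3 and 75.3 CPM of Gsr (1.26 ± 0.29, adjusted p = 0.0232), and CCl4 livers 37.9 to 58.8 CPM, median 44.3 (0.61 ± 0.18, adjusted p = 0.0262). APAP livers held 28.7 to 69.0 CPM, median 41.9, which overlapped Ctrl (0.84 ± 0.18, adjusted p = 0.00139). The GAL call of Gsr was lost without GAL liver 8 (1.24 ± 0.34, adjusted p = 0.0607). Without CIP liver 7 or 8 the values were 0.62 and 0.61 for CCl4 and 1.31 and 1.21 for GAL. Those fits hold 1 control liver, so no p is given, and both calls rest on 2 CIP livers.

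Txnrd1 (ENSMUSG00000020250.12), the cytosolic thioredoxin reductase, was 42.5 to 62.6 CPM in Ctrl livers, median 49.1, and 49.05 and 48.5 CPM in CIP livers. GAL livers held 240.5, 289, 258 and 262 CPM of Txnrd1, 5.38-fold over CIP (2.43 ± 0.17, adjusted p = 0.00208). TAA livers held 163, 121, 147, 121 and 197 CPM (1.66 ± 0.11, adjusted p = 6.48e-10) and CCl4 livers 119 to 150.1 CPM, median 129.9 (1.47 ± 0.13, adjusted p = 4.26e-05). In these 3 groups no treated liver overlapped its controls. ANIT (1.12 ± 0.12) and MDA (0.87 ± 0.10) livers were also wholly above Ctrl. In APAP livers Txnrd1 was 358 CPM in liver 1 and 43.2 to 72.2 CPM in the other 5, and its call (1.14 ± 0.34, adjusted p = 0.0135) was lost without liver 1 (0.16 ± 0.11, adjusted p = 0.327). Of the 3 Txnrd1 promoters in RefSeq 1 held the antioxidant response element core, shown here because Txnrd1 was called higher after 6 compounds; its window is chr10:82859094-82859142, plus strand, with the match in capitals on the opposite strand, 92 to 84 bases before that start.
Txnrd1: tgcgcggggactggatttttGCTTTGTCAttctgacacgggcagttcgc
Which of the starts was used in these livers was not measured.

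Srxn1 (ENSMUSG00000032802.9), sulfiredoxin, restores over-oxidised peroxiredoxins and had the largest fitted change of the 9 members other than Slc7a11 against the route vehicle, after CCl4, while against all vehicles that of Cbr3 after GAL was larger (4.98 against 4.62 for Srxn1 after CCl4). Ctrl livers held 17.4 to 47.8 CPM of Srxn1, median 29.6, and CIP livers 16.4 and 32.0 CPM. CCl4 livers held 607 to 943 CPM, median 670.3, 30.6-fold over CIP (4.94 ± 0.32, adjusted p = 1.04e-05). GAL livers held 486, 418, 317 and 298 CPM (3.99 ± 0.38, adjusted p = 0.00233) and TAA livers 402, 430.4, 272, 208 and 317 CPM (3.53 ± 0.22, adjusted p = 2.71e-10). MDA (61.5 to 251 CPM, median 186, 2.60 ± 0.23) and ANIT (240.0, 58.7, 179.6 and 113 CPM, 2.34 ± 0.28) livers also lay wholly above Ctrl. In APAP livers Srxn1 was 487 CPM in liver 1 and 53.4 to 114 CPM in the other 5, all above Ctrl, and the change was 2.34 ± 0.37 with that liver and 1.38 ± 0.22 without it (adjusted p = 1.35e-04).

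Osgin1 (ENSMUSG00000074063.11), an oxidative-stress-induced growth inhibitor, was 93.1 to 376 CPM in Ctrl livers, median 200.04. ANIT livers held 749, 1226, 1930 and 287 CPM of Osgin1 (2.30 ± 0.32, adjusted p = 5.08e-05), and the lowest overlapped Ctrl. MDA livers held 489 to 1024 CPM, median 709.5 (1.73 ± 0.19), TAA livers 733, 599, 607, 564 and 699.6 CPM (1.63 ± 0.21) and CCl4 livers 567 to 699 CPM, median 643 (1.16 ± 0.17, adjusted p = 7.59e-04). These 3 groups did not overlap their controls. GAL livers held 206, 311, 273 and 261 CPM of Osgin1 against 230.0 and 354 CPM in CIP (-0.14 ± 0.24, adjusted p = 0.688, and 0.63 with library totals alone, adjusted p = 0.0606). The APAP call of Osgin1 (1.16 ± 0.34, adjusted p = 0.0138) rested on liver 1, at 1357 CPM against 179 to 439 CPM in the others (0.43 ± 0.25, adjusted p = 0.212 without it).

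ConA, which injures the liver through T cells, gave 2 calls by route among the members, fewer than any other compound. Gsr was higher, at 38.6 to 75.8 CPM with a median of 64.4, against 33.6 and 30.0 CPM in CIV (1.01 ± 0.26, adjusted p = 0.0144). Cbr1 was lower, at 22.2 to 51.6 CPM with a median of 40.9, against 94.1 and 60.3 CPM (-0.90 ± 0.28, adjusted p = 0.0313). Both calls were unstable: Gsr lost its own with library totals alone (0.43, adjusted p = 0.461) and Cbr1 without ConA liver 8 (adjusted p = 0.0546). In fits with 1 control liver, Gsr was 0.90 without CIV liver 8 and Cbr1 -0.50 without CIV liver 7. Osgin1 was 369 to 1311 CPM, median 754, against 372 and 98.5 CPM (1.83 ± 0.67, adjusted p = 0.0575). Nqo1 was 2.25 to 8.92 CPM, median 3.44, against 5.80 and 8.25 CPM (-0.71 ± 0.52, adjusted p = 0.318), and Gclc was 42.4 to 123 CPM, median 49.2, against 109.9 and 139 CPM (-0.85 ± 0.39, adjusted p = 0.12). Txnrd1 was 58.2 to 105 CPM, all 7 above CIV (0.63 ± 0.25, adjusted p = 0.0744), and Gclm 230.3 to 359 CPM, all 7 below CIV (-0.50 ± 0.23, adjusted p = 0.123). Cbr3, which passed the filter only with the treated livers, was 0.468 to 2.45 CPM against 0.706 and 0.413 CPM. With 2 control livers the standard errors reached 0.78 (Srxn1, 1.72, adjusted p = 0.114), so a p over the threshold here does not show that levels were alike.

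Set against all 17 vehicle livers, ConA gave 4 members higher and 4 lower of 9 tested. Of all genes tested 34.3% were higher and 33.7% lower, so these counts are no result about the members. Those higher were Osgin1 (1.97 ± 0.25), Srxn1 (1.89 ± 0.28), Gsr (1.26 ± 0.11) and Txnrd1 (0.80 ± 0.09), the last of which was 0.21 (adjusted p = 0.265) with library totals alone. Those lower were Cbr1 (-1.06 ± 0.13, all 7 livers below all vehicles), Gclm (-0.58 ± 0.11), Nqo1 (-0.57 ± 0.21) and Gclc (-0.48 ± 0.17). The share of all genes called in this comparison was 68.0%, and route is mixed among its controls.

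The other compounds gave like counts against all vehicles: 8 of 9 higher for ANIT (13.5% of all genes higher, 14.5% lower, 28.0% called), 6 of 9 for APAP (18.1%, 15.3% and 33.4%) and 9 of 9 for MDA (17.2%, 17.1% and 34.2%). Without Slc7a11 they were 8 of 9 for TAA (25.2%, 24.5% and 49.7%), 7 of 9 for CCl4 (26.2%, 27.2% and 53.4%) and 6 of 9 for GAL (25.1%, 27.5% and 52.5%). Cbr1 was called lower after GAL (-0.81 ± 0.18, adjusted p = 7.65e-04) and after CCl4 (-0.21 ± 0.09, adjusted p = 0.0493). With library totals alone those 2 values were 0.05 and 0.33, so the direction of Cbr1 after either compound depends on the scaling. These comparisons share their control livers with those by route. Between the vehicles, 0 of 9 members were called by edgeR for CIP against Ctrl (0.0131% of all genes called, all higher) or for CIV against Ctrl (0.0263%, with 0.0197% higher and 0.00658% lower), where 570 and 580 genes had an unadjusted p under 0.05. Ctrl livers numbered 1 to 4 against those numbered above 4 also gave 0 of 9 (2.33% of all genes called, 0.603% higher and 1.73% lower, 2038 with an unadjusted p under 0.05).

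Between compounds, in 1 fit over all groups, 106 of 210 tests of a member in a pair of compounds were called, against 28.9% of all genes and pairs. Over the 21 pairs, Cbr1 differed in 16, Gclm in 14, Nqo1, Cbr3 and Gclc in 13 each, Srxn1 in 10, Txnrd1 in 8, Gsr in 7 and Osgin1 in 6. The 106 include 6 of Slc7a11, which is near 0 in most groups, and nothing is read from them. The top compound differed from all 6 others for Cbr3 and Gclc (GAL). GAL exceeded the next compound by 1.33 ± 0.37 on the log2 scale for Cbr3 (MDA, adjusted p = 0.00439) and by 1.68 ± 0.29 for Gclc (TAA, adjusted p = 1.15e-05).

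For other members the leading compounds could not be separated. For Nqo1 the order was MDA, GAL, TAA, ANIT, APAP, CCl4 and ConA, and only the last step was called (CCl4 over ConA by 1.20 ± 0.24, adjusted p = 1.07e-04). For Srxn1, CCl4 led GAL by 0.93 ± 0.46 (adjusted p = 0.131), and for Txnrd1, GAL led TAA by 0.81 ± 0.32 (adjusted p = 0.0502). For Cbr1, MDA led ANIT by 0.54 ± 0.24 (adjusted p = 0.0816), and ANIT in turn exceeded TAA by 1.02 ± 0.25 (adjusted p = 0.00116). For Gclm, ANIT and MDA differed by 0.07 ± 0.14 and MDA exceeded APAP by 0.43 ± 0.12 (adjusted p = 0.00688). No neighbouring pair in the order of Gsr or of Osgin1 was called.

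Across the 57 livers, members differed in how closely their levels followed each other. On log2(CPM + 1), Pearson's r was 0.84 for Cbr3 with Nqo1 and for Srxn1 with Txnrd1, 0.82 for Gclm with Cbr1, 0.75 for Txnrd1 with Gclc and 0.17 for Gclm with Gclc, and its lowest value was -0.13 for Slc7a11 with Cbr1. These points share groups and scaling and are given as a description. Averaging each member's z-score gives 1 value per liver, which lay between -0.88 and -0.47 in Ctrl, between 0.12 and 1.02 in MDA, between 0.55 and 0.93 in GAL and between -0.91 and -0.36 in ConA. Among 12370 other genes, those most like that mean were Slc48a1 (r = 0.897), a heme transporter, Gss (0.840), glutathione synthetase, Gm5526 (0.794), Plpp2 (0.772), a lipid phosphatase, and Ptpn21 (0.771), a tyrosine phosphatase.

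The sensor and the partners of NRF2 were read from a list of 8 genes. Of these, 7 were higher after MDA (17.4% of all genes tested), 6 after TAA (26.4%), 5 after ANIT (14.0%) and ConA (16.8%), 4 after CCl4 (18.0%) and GAL (12.8%) and 2 after APAP (17.3%), the last close to the share of all genes. The APAP count was 3 without APAP liver 11 or 8. Mafg was lower after TAA (-0.50 ± 0.18, adjusted p = 0.0279), a call that could be lost with 1 TAA liver left out, and it was among the 7 higher after MDA. The list's median log2 fold change ran from 0.49 (APAP) to 1.65 (GAL). Nfe2l2 itself rose most after GAL, to 78.8 ± 12.3 CPM (SD, n = 4) from 23.0 ± 1.15 (n = 2), a change of 1.78 ± 0.22 (edgeR, adjusted p = 0.00368). It was also called after TAA (0.90 ± 0.12), ConA (0.90 ± 0.28, adjusted p = 0.029) and MDA (0.37 ± 0.10), but the ConA value was 0.34 (adjusted p = 0.518) and the MDA value 0.32 (adjusted p = 0.0957) with library totals alone, under which APAP (0.45) and CCl4 (0.63) were called. Keap1 did not pass the test after any compound, with values between -0.39 and 0.39.

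Maff, a small MAF partner, was higher after all 7 compounds, from 2.17 ± 0.41 (MDA) to 6.16 ± 0.33 (TAA), and its APAP value was 5.06 ± 0.67 with and 2.89 ± 0.37 without APAP liver 1. Mafk was called after 6 compounds, GAL excepted (1.57). Sqstm1, whose product p62 binds KEAP1 and is itself an NRF2 target, rose most after CCl4, to 1333 ± 189 CPM (SD, n = 7) from 260.3 ± 10.6 (n = 2), a change of 2.39 ± 0.18 (edgeR, adjusted p = 1.69e-05). Bach1, the repressor that competes with NRF2 at its elements, was higher after ANIT (1.51 ± 0.20), MDA (0.82 ± 0.17), TAA (1.55 ± 0.19) and ConA (1.30 ± 0.35). Cul3 was higher after CCl4 (1.29 ± 0.38), GAL (1.74 ± 0.47), MDA (0.70 ± 0.21) and TAA (0.75 ± 0.23). The GAL count was 1 without CIP liver 7 or 8 or GAL liver 4 or 8, 2 without GAL liver 7 and 6 without GAL liver 2, and the ConA count was 3 without CIV liver 7. With library totals alone it was 7 for GAL, 6 for CCl4 and 2 for ConA.

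Of 20 further NRF2-responsive genes of detoxication and iron handling, those tested were mostly higher after MDA, and after ConA more were lower than higher. The ConA count lower was smaller in some fits with 1 liver left out. The counts higher and lower were 14 and 1 of 19 for MDA, 9 and 0 of 19 for ANIT, 8 and 2 of 20 for CCl4, 8 and 3 of 20 for GAL, 5 and 4 of 19 for TAA, 5 and 7 of 19 for APAP and 2 and 11 of 19 for ConA. Of all genes, 17.4% were higher and 16.4% lower after MDA, 14.0% and 14.2% after ANIT, 18.0% and 15.6% after CCl4, 12.8% and 15.7% after GAL, 26.4% and 24.0% after TAA, 17.3% and 14.6% after APAP and 16.8% and 17.3% after ConA. The TAA counts lie near those shares and are no result about the list. Library totals alone gave 12 and 2 for CCl4, 11 and 0 for GAL, 6 and 2 for TAA, and 1 and 12 for ConA. For GAL, 2 were higher without CIP liver 8, 3 without GAL liver 4 and 4 without CIP liver 7 or GAL liver 8, 6 were lower without GAL liver 2, and for CCl4 5 were higher without CIP liver 8. The count lower was 2 for TAA without TAA liver 6 and for ANIT without ANIT liver 1. The list's median log2 fold change was 0.76 for MDA and -1.73 for ConA, while that of all genes was 0.03 in both. Hmox1, heme oxygenase, was higher after ConA, at 339 ± 52.3 CPM (SD, n = 7) against 30.2 ± 10.9 (n = 2), a change of 3.54 ± 0.31 (edgeR, adjusted p = 5.60e-05). In the same livers Gstm3, a glutathione transferase, was at 3.12 ± 1.74 CPM against 251 ± 142 in CIV (-6.28 ± 0.48, edgeR, adjusted p = 3.24e-05). Gsta1, another transferase, rose after CCl4 (4.1 ± 0.19), TAA (3.70 ± 0.49), APAP (3.21 ± 0.47), MDA (3.15 ± 0.55) and GAL (2.30 ± 0.41) and fell after ConA (-3.30 ± 0.95, adjusted p = 0.0215). Abcc4, an efflux pump, rose most after CCl4 (5.67 ± 0.27, from 0.956 to 46.5 CPM on average). Gpx2, a glutathione peroxidase, was at 2.99 CPM on average after GAL against 0.0474 in CIP. It passed the filter there only through the treated livers, so it is given with no test, and without it the GAL counts were 7 and 3 of 19. After CCl4 Gpx2 passed in the same way and was not called, which leaves 8 and 2 of 19.

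Other glutathione genes were read from a list of 10. Ggt1 passed the filter after APAP, TAA, CCl4 and GAL only with the treated livers. It was not called there, so the counts for these 4 compounds also stand over 9 genes. The counts higher and lower were 4 and 1 for ANIT, 4 and 2 for MDA (9 tested), 3 and 3 for both TAA and CCl4, 2 and 2 for APAP, 2 and 4 for GAL and 2 and 1 for ConA (9 tested). Beside the shares of all genes just given, the TAA, APAP and ConA counts are close to the background, and those of the other compounds are small. Library totals alone gave 2 and 3 for ANIT, 2 and 2 for MDA, 3 and 2 for GAL and 1 and 2 for ConA. The count lower for MDA was 0 without MDA liver 3 or 8 and 1 without MDA liver 4, 7 or 12, and that for ANIT was 2 without ANIT liver 1 and 0 without ANIT liver 2, 3 or 4. The ConA count higher was 1 without CIV liver 8. The APAP count higher was 1 without APAP liver 1. The GAL count higher was 1 without CIP liver 7 or 8 or GAL liver 4 or 8, and its count lower was 2 without CIP liver 7. Slc3a2, the heavy chain that pairs with SLC7A11, was higher after all 7 compounds, and most after CCl4, at 337 ± 54.9 CPM (SD, n = 7) against 33.0 ± 5.17 in CIP (n = 2), a change of 3.39 ± 0.21 (edgeR, adjusted p = 9.17e-06). Gss, the second enzyme of glutathione synthesis, was called higher after ANIT, MDA, TAA, CCl4 and GAL by 0.66 to 1.01. Gstk1, a mitochondrial and peroxisomal transferase, was lower after CCl4 (-1.82 ± 0.12, adjusted p = 1.01e-05), and Gpx1, the abundant glutathione peroxidase, after APAP (-1.29 ± 0.20). Chac1, which degrades glutathione, was higher after ANIT (4.36 ± 0.72) and lower after GAL (-2.78 ± 0.48), and its call after APAP (2.56 ± 0.72) was lost without APAP liver 1 (1.19 ± 0.66, adjusted p = 0.192).

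ATF4 and its targets were read because they overlap in known control with Slc7a11. Of these 9 genes Phgdh, and after CCl4 and GAL also Psat1, passed the filter only with the treated livers and are left out. Of the others, 8 of 8 were higher after ConA (16.8% of all genes), 7 of 8 after MDA (17.4%), TAA (26.4%) and ANIT (14.0%), 6 of 8 after APAP (17.3%), 6 of 7 after CCl4 (18.0%) and 1 of 7 after GAL (12.8%). One gene was lower after CCl4 (Ddit4, -1.17 ± 0.23) and one after GAL (Trib3, -0.99 ± 0.24). Either call could be lost with 1 liver of its comparison left out. Psat1, a serine synthesis enzyme, was at 0.703 ± 0.380 CPM in CIP (SD, n = 2) and 31.8 ± 4.36 after CCl4 (n = 7). Sesn2, sestrin, rose after GAL (2.26 ± 0.31, edgeR, adjusted p = 0.0048). After ConA, Atf3 rose by 8.00 ± 0.92 (edgeR, adjusted p = 1.89e-04). Slc7a11, not tested there, was at 0.167 to 0.669 CPM in those livers, all above both CIV livers (0 and 0.0904 CPM). Over all 9 genes the counts higher were 9 for ConA, 8 for MDA and 2 for GAL, and with library totals alone 4, 5 and 4. The ConA count over 9 was 5 without CIV liver 8, and the GAL count was 3 without GAL liver 2 and 1 without any other liver of that comparison.

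**Figure D4:**
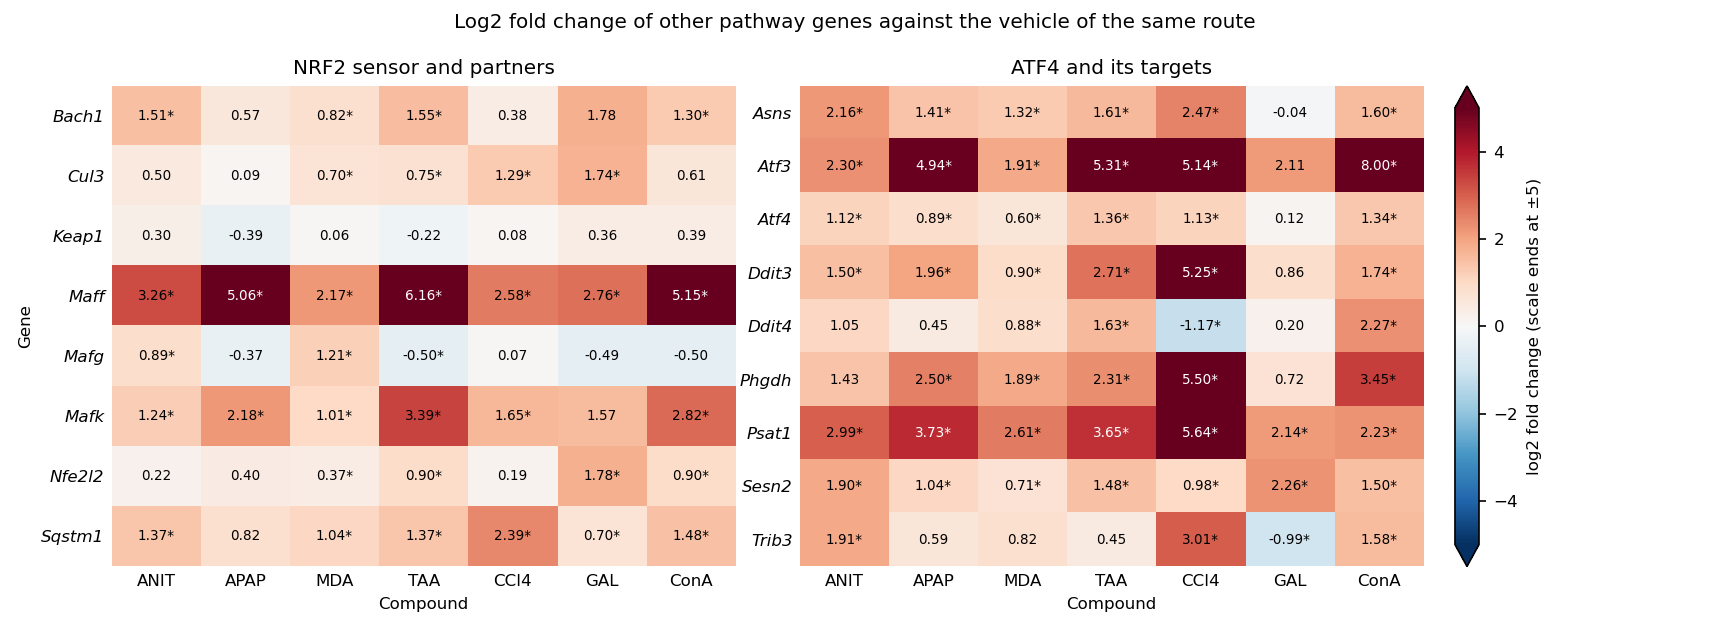
Log2 fold change after each compound (horizontal) of the NRF2 sensor and partners (left) and of ATF4 and its targets (right), against the vehicle of the same route, with an asterisk where the adjusted p was under 0.05. Maff has an asterisk in every column and Keap1 in none, and the CCl4 column of the ATF4 panel holds values up to 5.64 while the GAL column holds 3 asterisks, at 2.14, 2.26 and -0.99; nothing is read from the asterisks of Phgdh or from those of Psat1 in the CCl4 and GAL columns.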

How the data were processed

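Livers of 57 mice were measured by stranded, single-end mRNA sequencing, per the labels' protocols. Per-gene estimated counts were deposited, which the authors made with Salmon 1.6.0 and R 4.1.3 on GRCm39, per the submitters' processing notes. Longer transcripts had smaller lowest values above 0 (rho by Spearman -0.942 over 11676 genes with 1 transcript, which are not independent), so the values appear length-corrected, which no header states. Symbols came from GENCODE M21 (51482 IDs matched). No 2 columns were identical.

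Estimated counts were rounded to whole numbers. Each comparison was fitted on its own groups with edgeR 4.0.16 in R 4.3.3: TMM scaling, filterByExpr, the two-sided quasi-likelihood test and Benjamini-Hochberg adjustment over all genes tested, called under 0.05. The 21 pairs of compounds came from 1 fit over all groups, adjusted over genes and pairs together. Standard errors come from the F statistic. Values after ± are SE for log2 fold changes and SD for levels. The scripts were tested on simulated data. Alternatives were library totals alone, DESeq2 1.42.0, no filter, only genes that average 5 CPM or more, limma 3.58.1 on log2(CPM + 1), the replicate number as a block or its range (1 to 4, above 4) as a covariate or subset, a log2 fold change of at least 1, and each liver left out.

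The members, the 6 lists (64 genes), the markers and the tests were chosen with earlier results of these data known. Named are all members, all genes of the sensor list, and of each other list the gene with the largest called rise and fall per compound, plus the 5 genes most like the members' mean among those that average 1 CPM or more. The 2 ratios, the motif searches and values of list genes outside that rule were chosen after values were seen. The labels number livers within a group and do not say whether numbers pair mice. Deviations of same-numbered livers from their group means had correlations of -0.231 to 0.248, and no comparison with 3 or more shared numbers had all above 0.1, so the numbers were not taken as pairs. P-values measure the spread between these livers. With 1 CIP or CIV liver left out, 1 control liver remained, and the spread came from the treated livers alone. Calls or counts that moved in those fits do not show that levels were alike. The floor of 3 estimated counts covers counting error only.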

Additional observations from a re-analysis of the deposited data

Results flagged for a closer look

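Of 70 groups of 4 to 7 livers (10 genes in 7 compounds), 9 held a liver whose gap to its nearest neighbour was large for the range of its group on log2(CPM + 1), where chance gives about 1 in 20 for independent, normally spread values. The groups share livers and correlated genes, so 9 of 70 is not read as an excess. APAP liver 1 accounted for 3 of them: Txnrd1 at 358 CPM against 43.2 to 72.2 in the other 5, Srxn1 at 487 against 53.4 to 114, and Slc7a11 at 3.76 against 0.145 to 0.544. In MDA liver 1, Cbr3 was 2.80 CPM against 9.14 to 14.1. Cbr3 was high in CCl4 liver 11, at 7.42 against 3.28 to 4.66, and in ConA liver 11, at 2.45 against 0.468 to 1.09. Slc7a11 was 2.68 in TAA liver 7 against 0.645 to 0.881. Gclm was 366 in CCl4 liver 6 against 412 to 444, and Gsr was 38.6 in ConA liver 3 against 57.2 to 75.8.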

How the results depend on the processing

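Counts of members called, over the 9 without Slc7a11, against the route vehicle moved by over 1.5 times for ANIT with the replicate block (5 instead of 8), for APAP with the block (0 instead of 6) and within mice 1 to 4 (2), and for ConA (2) with DESeq2 (5) or within mice above 4 (1). Requiring a log2 fold change of at least 1 left 4 for CCl4 and 1 for ConA, and against all vehicles 4 for CCl4 and 4 for ConA. Within mice 1 to 4, the count against all vehicles was 2 for APAP. CCl4 holds 1 liver in that range, so no count is read from it. Leaving out 1 liver gave 4 to 7 for CCl4 and 1 to 4 for ConA. Ctrl livers 1 to 4 against the rest gave 1 member with library totals alone. Over the 6 lists, a count higher or lower moved by over 1.5 times in 20 of 30 pairs of list and compound with the block, in 17 of 24 within mice 1 to 4, 11 of 36 within mice above 4 and 26 of 42 with library totals alone. Of the other settings it moved in 10 of 42 or fewer. Over all 9 ATF4 genes, the count higher for APAP (7) was 1 with the block and 3 within either number range, that for ANIT (7) was 2 with the block, and that for MDA (8) was 5 with the block and 3 within mice 1 to 4. Osgin1 after APAP turned to -0.14 by route and -0.21 against all vehicles within mice above 4. With library totals alone, Gclm after GAL turned to 0.66 by route and 0.61 against all vehicles, Cbr1 after GAL to 0.05 and after CCl4 to 0.33, and Gclm after CCl4 to 0.44, both against all vehicles. The cause of these shifts was not tested, except that subsets and blocks leave fewer livers or degrees of freedom. DESeq2 gave no adjusted p for Txnrd1 after APAP by route. The labels do not say whether the numbers pair mice, and no block could be fitted for CCl4 and ConA by route, which share 1 number with their controls. The subset of mice above 4 could not be fitted for ANIT, nor that of mice 1 to 4 for CCl4, GAL and ConA by route or for CIP and CIV against Ctrl. With 2 control livers in CIP and CIV, their number limits these comparisons, and depth limits Slc7a11 in the vehicles, where no liver held over 2.81 estimated counts.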

Other observations

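Enzymes that supply NADPH, which the thiol and quinone reductases consume, were read from a list of 7. Of these 7 genes, 0 were called by edgeR after ANIT in either direction, 1 was lower after MDA, and the counts higher and lower were 1 and 2 for APAP, 2 and 2 for TAA and CCl4, 0 and 3 for ConA, and 2 and 3 for GAL. The shares of all genes higher and lower were 14.0% and 14.2% in the ANIT comparison, 17.4% and 16.4% in that of MDA, 17.3% and 14.6% in the APAP comparison, 26.4% and 24.0% in that of TAA, 18.0% and 15.6% in that of CCl4, 16.8% and 17.3% in that of ConA and 12.8% and 15.7% in that of GAL. In a list of 7 genes nothing is read from counts of this size. With library totals alone the CCl4 counts were 4 and 0, those of GAL 2 and 1, those of ConA 0 and 5 and those of ANIT and MDA 0 and 2, and the CCl4 count higher was 1 without CCl4 liver 1, 6, 8 or 10 or either CIP liver. The CCl4 count lower was 1 without CIP liver 7, the MDA count lower was 2 without MDA liver 2, and 1 was higher for MDA without MDA liver 1. G6pdx, the entry enzyme of the pentose phosphate pathway, was at 28.1 ± 3.91 CPM after GAL (SD, n = 4) against 4.35 ± 0.323 (n = 2), a change of 2.69 ± 0.22 SE (edgeR, adjusted p = 0.00208), and also rose after TAA (1.63 ± 0.19) and APAP (1.27 ± 0.19). Pgd, a later enzyme of that pathway, rose after CCl4 (1.91 ± 0.19). Idh1, a cytosolic isocitrate dehydrogenase, was lower after ConA, at 16.1 ± 4.16 CPM against 196 ± 79.1 (-3.55 ± 0.27, edgeR, adjusted p = 2.77e-05), and Me1, malic enzyme, was lower after APAP (-2.19 ± 0.28).

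A list of 10 genes of the thioredoxin system held 2 thioredoxins, 6 peroxiredoxins, the mitochondrial reductase Txnrd2 and Txnip, and 3 or fewer were higher after each compound. Of these 10 genes, the counts higher and lower were 0 and 5 for GAL, 1 and 2 for CCl4, 3 and 3 for TAA, 1 and 3 for MDA, 0 and 2 for APAP, 0 and 1 for ANIT and 1 and 6 for ConA. Beside the shares of all genes given for each compound in the preceding paragraph, the TAA and APAP counts lower are close to the background (24.0% and 14.6%), as is the TAA count higher (26.4%). Library totals alone gave 0 and 1 for GAL, 1 and 6 for MDA, 0 and 3 for ANIT, 0 and 0 for APAP, 0 and 7 for ConA and 2 and 0 for CCl4, so the balance of higher and lower for CCl4 depends on the scaling. The count lower was 7 for MDA without MDA liver 2, 1 for TAA without TAA liver 6 and 0 for CCl4 without either CIP liver. It was 0 for ANIT without ANIT liver 3 or 4 and 2 without ANIT liver 1. The GAL count lower was 2 without CIP liver 7 and 3 without CIP liver 8 or GAL liver 4, 7 or 8, and the ConA count was 2 without CIV liver 7 and 4 without CIV liver 8 or ConA liver 4. Prdx4, a peroxiredoxin of the secretory pathway, was at 37.0 ± 2.39 CPM after GAL (SD, n = 4) against 108 ± 14.0 (n = 2), a change of -1.54 ± 0.15 SE (edgeR, adjusted p = 0.00217). Txnip, which binds thioredoxin, was higher after ConA (1.47 ± 0.35) and TAA (1.00 ± 0.23) and lower after MDA (-0.96 ± 0.23).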
